A study of Mus musculus with 2 samples.

Results

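The translation initiation factors of the Eif family were compared between long-term hematopoietic stem cells (LT-HSCs) of p38α+/+ and p38αΔ/Δ mice aged 2 years. Members were the genes whose name on the array begins with Eif and a digit, apart from the sex chromosome pair Eif2s3x and Eif2s3y. This gave 54 of the 22554 named genes, measured by 83 of 55662 distinct probes, and the choice was made by name. All 54 genes were well above background on both arrays at their brightest probe, so none was lost to the filter on dim signals.

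Bone marrow LT-HSCs of C57BL/6J mice were sorted, and Cy3-labelled total RNA of each genotype was read on 1 single-colour Agilent mouse array, both on 1 slide. Mice of the p38αΔ/Δ group carried CAG-CreERT2 and floxed p38α alleles and received tamoxifen (TAM) at about 1 year of age. The p38α+/+ controls, labelled as wild type, were according to the methods Cre(-) p38α fl/fl mice of the same age that also received TAM, so both groups carried the floxed alleles and the drug. The labels give the sorted cells as CD150+ CD48- Flt3- CD34- cells within the LSK fraction (lineage-, Sca-1+, c-Kit+), and the methods add CD41-. The CAG promoter is active in nearly every tissue, so that deletion was not restricted to HSCs. How many mice contributed to an array is not given in the sources used here. With 1 array per group there is no spread between mice, and no test between the genotypes was possible.

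Signals are given as log2 intensity minus the array's 75th percentile over all probes that are not controls. A difference is the log2 value on the array labelled p38αΔ/Δ minus that on the p38α+/+ array, so a negative number is a lower signal on the former. The p38α+/+ array had 67.9% of its probes well above background, the other had 69.0%, and no spot (0) was saturated. Over 281 probes printed several times, the standard deviation between repeated spots was 0.09 and 0.10 (log2), which gives 0.14 for a difference between single spots, and the scanner's own error estimate for a difference had a median of 0.20 over the members. Both errors cover printing, hybridization and scanning and say nothing of the spread between mice.

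The probes of the targeted gene read alike on both arrays. Those of Mapk14, which encodes p38α, read 2.08 and 2.03 at one position (difference -0.05) and 2.34 and 2.31 at the other (difference -0.04). Which exons were deleted, and so whether these probes lie inside them, is not given in the sources used here. The study checked deletion in its mice by PCR on genomic DNA, a measurement that was not analysed here. For this reason the mutant sample is called the array labelled p38αΔ/Δ. Of the 17188 named genes measured on at least 1 array, 9002 were lower on that array and 8186 higher. Marker genes of HSCs were lower on that array for 13 of 14 genes, with a median difference of -0.45. Their summed signals were 7.41 (p38α+/+) and 7.11. Neutrophil and monocyte markers were higher for 9 of 14 genes, with a median of 0.70 and summed signals of 7.77 and 8.22. The lower ones were Elane (difference -1.41), Lyz2 (-0.96), Cebpe (-0.80), Fcgr3 (-0.49) and Ly6g, which was well above background for p38α+/+ alone. Most of the neutrophil and monocyte sums came from Itgam, which read 7.50 and 7.92 and whose probes differed by -0.42 to 0.88. B lineage markers were higher for 8 of 8 genes measured on both arrays, with a median of 0.62 and summed signals of 3.87 and 5.11. Without Jchain, which read 0.18 and 3.93, the B lineage sums were 3.76 and 4.28. T and NK cell markers were higher for 6 of 8, with a median of 0.59 and sums of 4.36 and 4.64. The lower ones were Zap70, which read 1.15 and -3.28 but differed by -0.03 at its other probe, and Klrb1c (difference -0.53). Erythroid markers were higher for 6 of 9 genes with equal sums of 6.66, while signals not well above background on both arrays came from the B lineage marker Igll1 and the T cell markers Cd3d and Cd3g. The part of these differences in the Eif values was not tested. In bulk RNA, fewer cells of a type and less RNA per cell cannot be told apart.

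Initiation is the step at which a ribosome is brought to the start codon of an mRNA. The small ribosomal subunit is loaded with eIF3, eIF1, eIF1A, eIF5 and a complex of eIF2, GTP and initiator tRNA. It is recruited to the capped mRNA by eIF4F (the cap-binding protein eIF4E, the scaffold eIF4G and the helicase eIF4A) and scans to the start codon, where eIF5B joins the large subunit. Cells adjust the rate through phosphorylation of eIF2α, which blocks its recycling by eIF2B, and through the 4E-binding proteins, which take eIF4E away from eIF4G until mTOR phosphorylates them. HSCs are known for a low rate of protein synthesis compared with their progeny.

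Sequences are shown for the 5 member probes with the lowest differences among the 8 that cross an exon junction, because these probes read below the other member probes. Each is a 60-base probe whose mm9 coordinates span more than 60 bases, so it crosses at least 1 exon junction and reads spliced RNA. They lie at chr7:29765540-29766730 on the minus strand for Eif3k, chr4:129272626-129274145 on the minus strand for Eif3i, chr7:116083752-116084173 on the plus strand for Eif3f, chr15:101916459-101916965 on the plus strand for Eif4b and chr2:121866905-121867335 on the plus strand for Eif3j2. The letters are those of the array design, in the sense orientation and in lower case throughout, since the place of the junction within the probe is not part of the design file.
Eif3k: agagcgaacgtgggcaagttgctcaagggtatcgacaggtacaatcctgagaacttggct
Eif3i: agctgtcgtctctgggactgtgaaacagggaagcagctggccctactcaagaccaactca
Eif3f: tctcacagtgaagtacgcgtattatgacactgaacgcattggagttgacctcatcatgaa
Eif4b: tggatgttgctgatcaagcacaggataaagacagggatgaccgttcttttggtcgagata
Eif3j2: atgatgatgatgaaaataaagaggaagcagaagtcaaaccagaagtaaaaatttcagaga
The differences of these probes were -1.48, -0.86, -0.72, -0.60 and -0.55 in the same order, and this choice by value fixes their sign. For Eif3k another probe is the brightest and represents the gene.

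Promoter sequence was matched by symbol for 41 of the 54 genes in a RefSeq table of build GRCm38.p6, which holds 250 bases before and 50 after each gene's start. The 150 bases before the start are shown for 4 eIF3 subunit genes, whose own values follow below, with the motifs that were searched for in capitals. CACGTG is the E-box, CCGGAAG the core of ETS sites and GCATGCGC the core of NRF1 sites. The windows are chr7:108934265-108934414 on the plus strand for Eif3f, chr7:28981889-28982038 on the minus strand for Eif3k, chr9:20898591-20898740 on the minus strand for Eif3g and chr2:105017028-105017177 on the minus strand for Eif3m.
Eif3f: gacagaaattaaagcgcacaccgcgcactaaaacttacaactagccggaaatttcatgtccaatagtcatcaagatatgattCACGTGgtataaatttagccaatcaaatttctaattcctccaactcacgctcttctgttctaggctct
Eif3k: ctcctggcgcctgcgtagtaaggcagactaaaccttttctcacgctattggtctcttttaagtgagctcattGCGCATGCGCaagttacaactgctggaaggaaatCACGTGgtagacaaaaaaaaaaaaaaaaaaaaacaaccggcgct
Eif3g: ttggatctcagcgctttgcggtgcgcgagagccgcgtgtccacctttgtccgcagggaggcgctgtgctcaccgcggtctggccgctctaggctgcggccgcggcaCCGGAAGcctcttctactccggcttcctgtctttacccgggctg
Eif3m: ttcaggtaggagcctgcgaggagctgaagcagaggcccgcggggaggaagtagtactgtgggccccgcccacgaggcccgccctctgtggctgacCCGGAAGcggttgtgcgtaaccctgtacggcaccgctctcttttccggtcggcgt
The E-box begins at -68 from the start of Eif3f and at -44 from that of Eif3k, where NRF1 cores on opposite strands overlap from -78 on. The ETS core begins at -44 in Eif3g and at -55 in Eif3m.

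Read on both strands over the full 300-base windows, the ETS core was present for 16 of 41 member genes (39%), compared with 9.93% of 27025 genes in the table and 21.9% of the 3402 genes with an entry among the 25% with the brightest signals. The E-box was present for 10 member genes (24.4%), compared with 8.09% of all and 12% of the brightest. The NRF1 core was present for 3 member genes (7.32%, compared with 3.05% of all and 5.85% of the brightest), the YY1 motif AAGATGGCG for 1 (2.44%, compared with 1.64% and 3.59%) and the C/EBP-ATF element TGATGCAA for 0, compared with 1.03% and 0.735%. No motif searched for contains another, and genes with several listed starts had more sequence searched. Member genes with and without an ETS core had median differences of -0.20 and -0.23, and those with and without an E-box -0.19 and -0.29. A motif match describes the letters only.

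Across the family, signals on the array labelled p38αΔ/Δ lay slightly below those on the p38α+/+ array. Of the 54 genes, 39 were lower and 15 higher, that is 72.2% lower compared with 52.4% of the 17188 named genes measured on at least 1 array. The median difference was -0.22 (quartiles -0.43 and 0.01), compared with -0.03 (quartiles -0.38 and 0.33) over all named genes. Inside the spot error of 0.14 lay 13 of the 54 members, compared with 3498 of the 17188 named genes. Past the scanner's own error estimate for that gene were 34 members, of which 29 were lower and 5 higher. The share of all named genes past their scanner error was not computed.

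**Figure D1:**
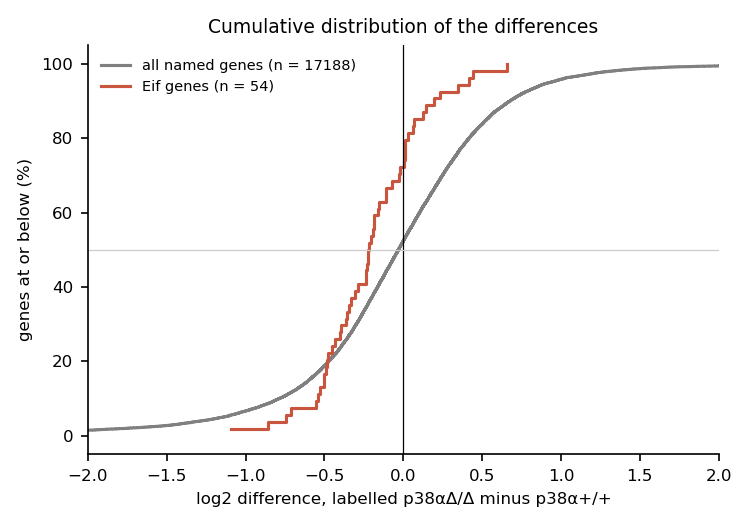
Cumulative share of genes (vertical axis, percent) at or below each log2 difference between the array labelled p38αΔ/Δ and the p38α+/+ array (horizontal axis), for 54 Eif genes and 17188 named genes, 1 array per genotype. The Eif curve reaches 72.2% at 0, where that of all genes stands at 52.4%, and it lies below the latter at the far left, with 1 gene at least 2-fold lower.

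The shares of members past a fold limit were below those of all genes. At least 2-fold lower was 1 member (1.85%), compared with 6.62% of all named genes, and at least 2-fold higher were 0 members, compared with 4.1%. At 1.5-fold, 4 members were lower (7.41%, compared with 15.4%) and 1 was higher (1.85%, compared with 12.7%). Differences moved with signal strength. Of the members, 34 were among the brightest 25% of all named genes, where the median of all genes was -0.09 with 59.04% lower, and the 34 members had a median of -0.23 with 29 lower. In that band 283 of 4297 genes were at least 1.5-fold lower, and 2 of the 34 members were. The 12 members of the next brightest band had a median of -0.33, compared with -0.06 for all its genes, and 2 of the 12 were at least 1.5-fold lower, compared with 558 of 4297. In the dimmer bands, 6 and 2 members had medians of 0.11 and 0.18, compared with -0.01 and 0.09. The part of signal strength in the family's values was not tested.

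**Figure D2:**
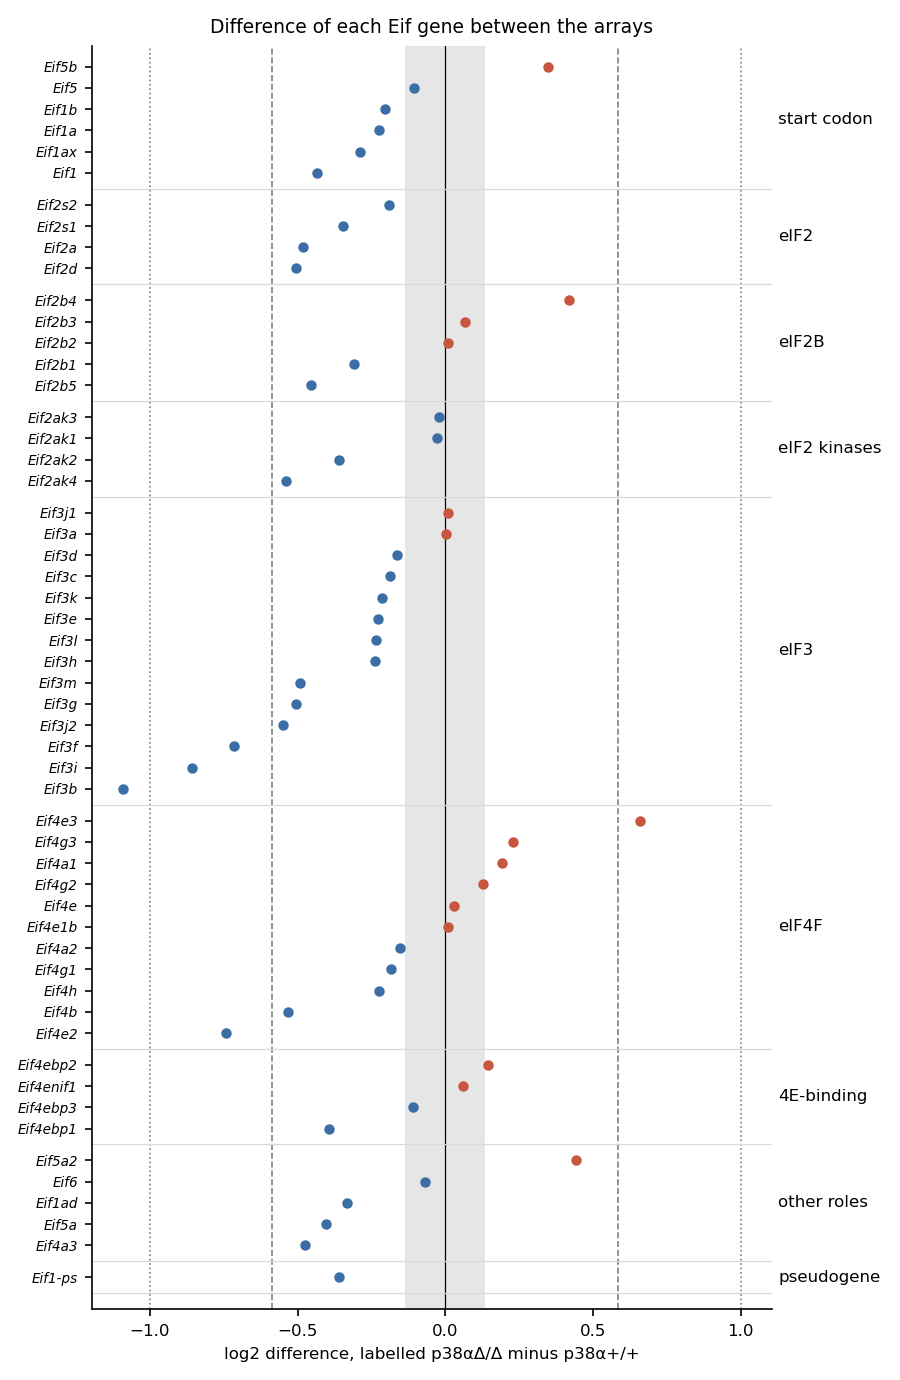
Log2 difference of each of the 54 Eif genes (horizontal axis, array labelled p38αΔ/Δ minus p38α+/+, 1 array each), grouped by role. Blue points are lower and red points higher, the grey band marks the standard deviation between single spots (0.14), and dashed and dotted lines mark 1.5-fold and 2-fold. Eif3b at -1.09 is the only point past a dotted line, and Eif4e3 at 0.66 the only one past 1.5-fold on the right.

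The factors that scan for the start codon and join the subunits were lower for 5 of 6 genes, with a median of -0.21. Eif1, whose protein holds the scanning ribosome open until a start codon is met, read 4.18 on the p38α+/+ array and 3.75 on the other, a difference of -0.43. The dimmer probe of Eif1, which crosses an exon junction, read 0.48 and 0.47, a difference of -0.01, so the size of the fall depends on the probe. Eif1b, the close paralog of Eif1, read 3.71 and 3.51. Eif1ax and Eif1a, the copies of the partner eIF1A, had differences of -0.29 and -0.22. At its brightest probe Eif5, the protein that makes eIF2 hydrolyse its GTP, read 4.37 and 4.27, which is less apart than single spots commonly are. The other probe of Eif5 read 4.11 and 3.82, a difference of -0.30. Eif5b, the GTPase of subunit joining, went the other way at 0.35, with signals of -3.96 and -3.62 that lie close to the lowest level counted as well above background (-4.65 and -4.72). The processed pseudogene Eif1-ps read 5.96 and 5.60, and because its letters resemble those of Eif1, signal of the parent gene on this probe cannot be told apart from its own.

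eIF2 and the other carriers of initiator tRNA were lower for 4 of 4 genes, with a median of -0.41. This group holds the eIF2 subunit genes Eif2s1 and Eif2s2 and the separate carriers Eif2a and Eif2d. The complex is covered only in part, since Eif2s3x and Eif2s3y were left out of the members. Eif2s1, which encodes the α subunit on which stress kinases act, read 1.69 on the p38α+/+ array and 1.35 on the other. Its neighbour in the complex, Eif2s2 (the β subunit), read 3.27 and 3.08. For both genes a dimmer probe showed the opposite sign, with differences of 0.92 for Eif2s1 and 0.40 for Eif2s2, so their direction depends on the probe, and the mean of the probes left 2 of the 4 genes lower. Eif2a, a carrier that works apart from eIF2, read 3.48 and 2.99, a difference of -0.48 from its only probe.

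Eif2d, the carrier also called ligatin, was the best measured member, because its junction-crossing probe was printed 10 times per array. That probe read 0.25 ± 0.06 for p38α+/+ and -0.11 ± 0.10 for the other array (SD, n = 10 spots). The spots ranged from 0.17 to 0.39 on the former and from -0.28 to -0.02 on the latter, so they did not overlap. The brightest probe of the gene gave -0.50, with readings of 0.65 and 0.15. The spots come from the same pair of RNA samples and are not replicates of a genotype.

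eIF2B, the complex that reloads eIF2 with GTP, showed no common direction, with 2 of 5 subunits lower, 3 higher and a median of 0.01. Its catalytic subunit gene Eif2b5 read 2.20 on the p38α+/+ array and 1.74 on the other (difference -0.46), and the regulatory subunit gene Eif2b1 read 0.67 and 0.36 (difference -0.31). Eif2b4, another regulatory subunit, was higher at -1.62 and -1.20 (difference 0.42). Eif2b2 differed by 0.01 and the brightest probe of Eif2b3 by 0.07, within the spot error, while the other probe of Eif2b3 gave 0.38.

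The kinases that phosphorylate eIF2α were lower for 4 of 4 genes, but for 2 of them by no more than the spot error. Eif2ak4, which encodes the amino acid sensor GCN2, read -1.17 on the p38α+/+ array and -1.71 on the other, and all 3 of its probes were lower, with differences from -0.54 to -0.30. Eif2ak2, which encodes PKR, the sensor of double-stranded RNA and an interferon-induced gene, read 2.70 and 2.34. The heme-regulated kinase gene Eif2ak1 and the endoplasmic reticulum kinase gene Eif2ak3 (PERK) differed by -0.03 and -0.02.

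eIF3, the large scaffold that holds the small subunit and its partners together, was lower for 12 of its 14 genes, with a median of -0.24, among the 39 lower members of the family. At least 1.5-fold lower were 3 of the 14, compared with 15.4% of all named genes. Eif3b, which encodes the scaffold subunit that contacts the small ribosomal subunit, read 0.70 on the p38α+/+ array and -0.39 on the other, a 2.13-fold lower signal at chr5:140918319-140918378 (mm9). Eif3i, a subunit that binds Eif3b, read 1.95 and 1.09, and Eif3g, its other partner in that module, read 3.48 and 2.98. The proteins of Eif3b, Eif3g and Eif3i form a unit that moves on the ribosome during scanning, and their differences were -1.09, -0.50 and -0.86. This grouping was chosen after the values were seen, and each gene had a single probe.

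The subunits of the core of eIF3 that carry PCI or MPN domains had smaller differences, apart from Eif3f and Eif3m. Eif3f read 3.34 on the p38α+/+ array and 2.63 on the other, a difference of -0.72. Eif3m read 3.55 and 3.06, and its other probe, which crosses an exon junction, gave -0.45. Eif3c, Eif3e, Eif3h, Eif3k and Eif3l lay between -0.24 and -0.19 at their brightest probes. Eif3a, the largest subunit and the organiser of the core, read 0.71 and 0.72, with no difference at 0.00. Eif3d, the subunit known for binding the cap of selected mRNAs, read 4.17 and 4.01.

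The genes Eif3j1 and Eif3j2 are near-identical neighbours on chromosome 2, for the loosely bound subunit that guides recycling. Eif3j1 read 1.05 on the p38α+/+ array and 1.07 on the other, whereas Eif3j2 read 1.5 and 0.95 (difference -0.55). How far each probe also binds RNA of the other gene was not tested.

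**Figure D3:**
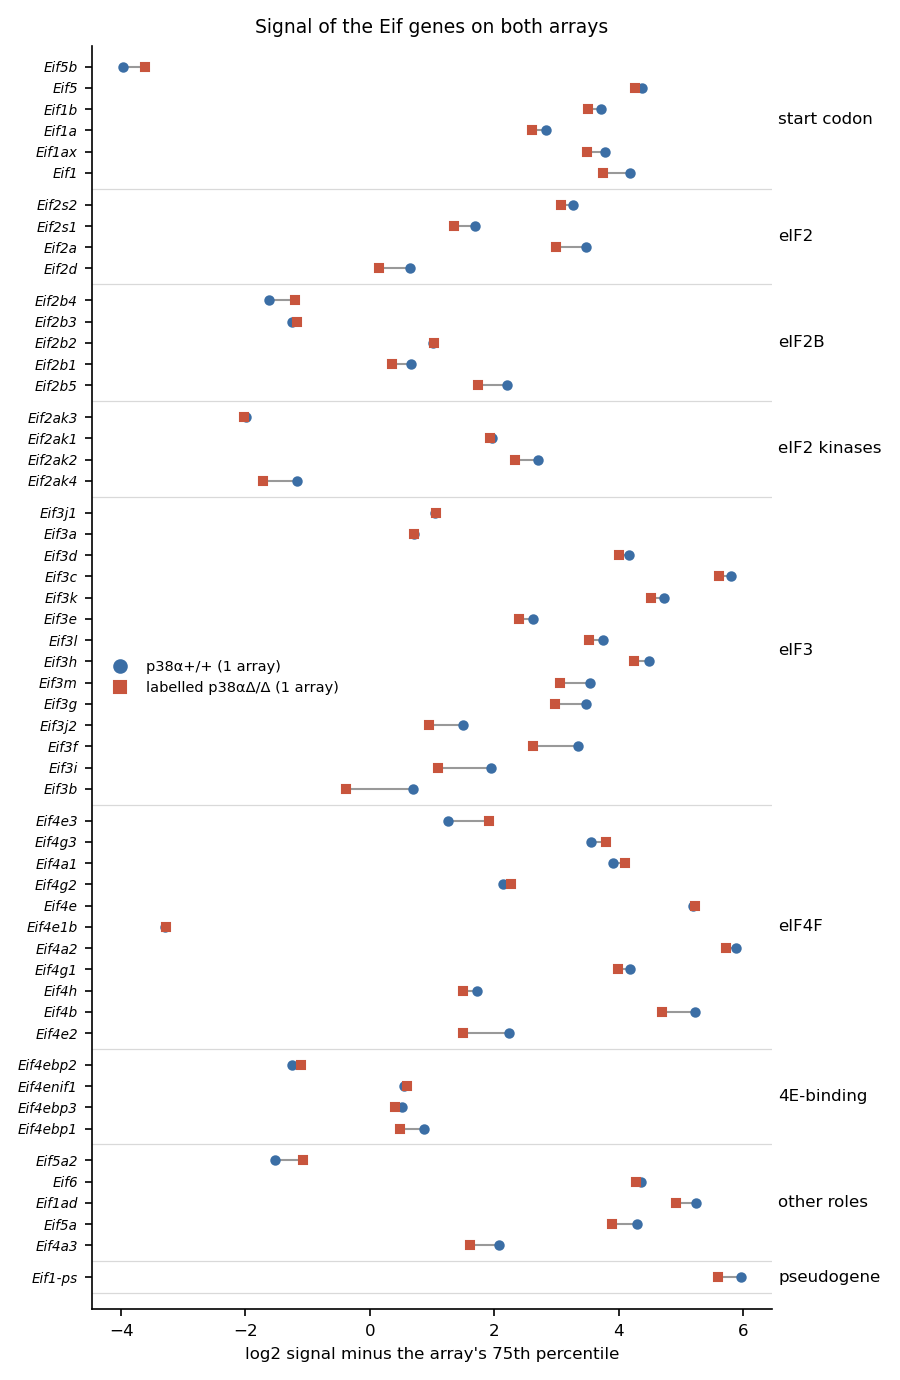
Signal of each of the 54 Eif genes on the p38α+/+ array (blue circles) and on the array labelled p38αΔ/Δ (red squares), as log2 intensity minus the array's 75th percentile (horizontal axis), 1 array per genotype. Only the distance between the points of a gene can be read, since probes differ in brightness for the same amount of RNA. The eIF3 rows show most squares to the left of their circles, most widely for Eif3b at 0.70 and -0.39.

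eIF4F and its relatives were split evenly, with 5 genes lower, 6 higher and a median of 0.01. Eif4e, which encodes the cap-binding protein itself, read 5.20 on the p38α+/+ array and 5.23 on the other. Of the helicase genes, Eif4a1 was at 3.91 and 4.11 and Eif4a2 at 5.88 and 5.73, differences of 0.19 and -0.15. The scaffold gene Eif4g1 read 4.18 and 4.00, Eif4g3 read 3.56 and 3.79, and Eif4g2, whose protein lacks the site for eIF4E, read 2.14 and 2.27. At their brightest probes these 6 genes differed by at most 0.23. Other scalings moved Eif4g3 up to 0.32, Eif4a1 to 0.30 and Eif4a2 to -0.29, and dimmer probes of Eif4g3 gave 0.53, 0.32 and -0.23.

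The wider differences in this group lay in the accessory factors. Eif4b, the cofactor that stimulates the helicase, read 5.23 on the p38α+/+ array and 4.70 on the other, and all 3 of its probes were lower, with differences from -0.60 to -0.26. Eif4h, the related cofactor, had a difference of -0.23. Eif4e3, an unusual cap-binding relative of eIF4E, read 1.25 and 1.91, and this difference of 0.66 was the highest of the family. Eif4e2, which encodes a cap-binding protein (4EHP) that represses translation, read 2.24 and 1.5 at its brightest probe. Its other probes gave -0.06 and 1.57, the latter from readings of -1.78 and -0.22, so that the gene has no settled direction.

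The eIF4E-binding repressors showed no common direction, with 2 genes lower, 2 higher and a median of -0.02. Eif4ebp1, a target of mTOR, read 0.87 on the p38α+/+ array and 0.48 on the other, a difference of -0.39. Eif4ebp2 and Eif4ebp3 differed by 0.14 and -0.11, and Eif4enif1, which carries eIF4E into the nucleus, by 0.06.

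Among members whose main role lies outside initiation, 4 of 5 were lower, with a median of -0.33. Eif5a, which helps ribosomes through difficult peptide bonds and bears the hypusine modification, read 4.30 on the p38α+/+ array and 3.90 on the other, while its paralog Eif5a2 was higher, at -1.52 and -1.07. Eif4a3, the helicase of the exon junction complex, read 2.08 and 1.61 (difference -0.48). Eif6, which keeps the large subunit apart from the small one, read 4.35 and 4.28 and differed by less than the spot error.

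Where a gene had several probes, most of them pointed the same way. Of 19 genes with more than 1 probe well above background on both arrays, 13 had probes of like sign, and for 14 the probes lay within 0.5 of each other. The median range was 0.24. The exceptions in sign were Eif2s1, Eif2s2, Eif3j1, Eif4e, Eif4e2 and Eif4g3, and in each a dimmer probe disagreed with the brightest. For Eif3k the direction held but the size did not, since its junction-crossing probe gave -1.48 and its other probes -0.37 and -0.22. The remaining genes have 1 usable probe and allow no such comparison.

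**Figure D4:**
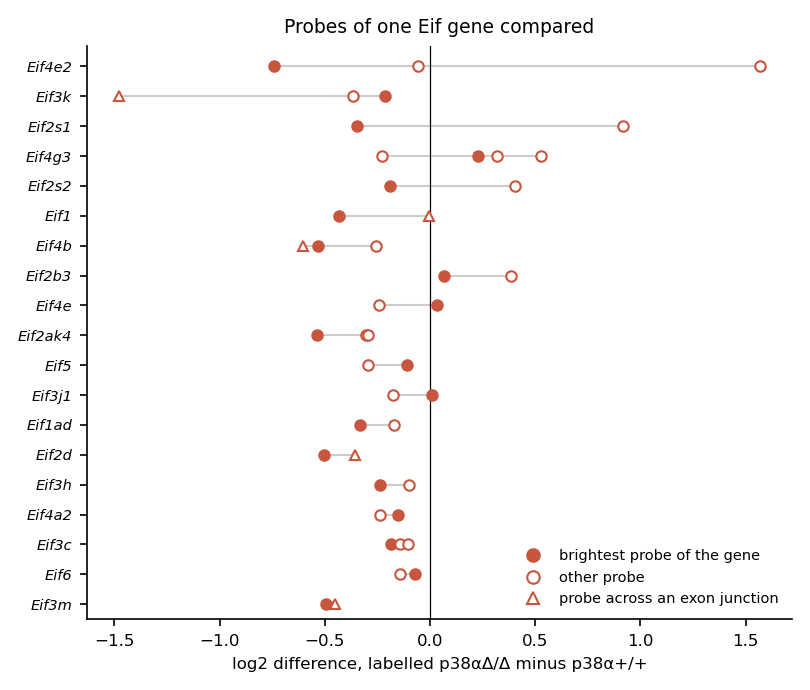
Log2 difference (horizontal axis, array labelled p38αΔ/Δ minus p38α+/+) of every probe well above background on both arrays, for the 19 Eif genes with more than 1 such probe, 1 array per genotype. Filled circles are the brightest probe of a gene, open circles other probes and triangles probes that cross an exon junction. The widest spread is that of Eif4e2, from -0.74 to 1.57, and all triangles lie below 0.

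Probes that cross an exon junction, such as those whose letters are given above, gave lower values than the others. All 8 such member probes were below 0, with a median of -0.58 and a range from -1.48 to -0.01, whereas 51 of the other 72 were below 0, with a median of -0.18. A difference of the same sign was seen over the whole array, where 68.1% of 1119 junction-crossing probes were lower (median -0.25), compared with 54.3% of 20222 probes within a single block (median -0.05). Without these probes the family had 36 of 51 genes lower, a median of -0.20, and 2 genes in place of 4 at least 1.5-fold lower, since Eif3i and Eif3f are measured by such probes alone. This comparison was chosen after the values were seen, and what sets these probes apart was not tested.

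Genes of the other steps of translation were read from lists written from general knowledge. Initiation factors and cofactors without an Eif name, the mitochondrial Mtif2 and Mtif3 included, were lower for 8 of 15 genes and higher for 7. Their median was -0.02. Denr, which acts with an MCTS protein in recycling and reinitiation, was the lowest of these at 2.30 and 1.80, although its other probe was higher by 0.33, and Mcts2, a gene for such a partner, the highest at 1.27 and 1.70. Elongation factors and the enzymes of eIF5A hypusination were lower for 13 of 14 measured genes, with a median of -0.37. This list includes the mitochondrial factors Gfm1, Gfm2, Tufm and Tsfm. With the mean of the probes of each gene, 10 of the 14 were lower, with a median of -0.25. In that list Eef2k, the kinase that slows elongation by acting on eEF2, read 1.93 and 0.84 (difference -1.09) but had probes up to -0.08, and Eefsec, the factor for selenocysteine, was the only one higher, by 0.29. Eef1a2 lay under the detection limit on both arrays.

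Termination and recycling factors were lower for 3 of 6 genes, with a median of -0.06, from Pelo, a ribosome rescue factor, at -0.62 to its partner Hbs1l at 0.28, which also had a probe at -0.70. Kinases that act on eIF4E, eIF4B and the 4E-binding proteins were lower for 6 of 8 genes, with a median of -0.16. Mknk1, which encodes a kinase of eIF4E that is itself a p38 and ERK substrate, read -2.22 on the p38α+/+ array and -1.23 on the other (difference 0.99). Rps6kb2, for a ribosomal S6 kinase, was the lowest of that list at -0.30. The responses downstream of eIF2α phosphorylation were lower for 10 of 16 genes, with a median of -0.09. Nupr1, a stress-induced chromatin protein, read 5.25 and 4.06 (difference -1.19), while Trib3, a target of the ATF4 pathway, was higher by 0.63.

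**Figure D5:**
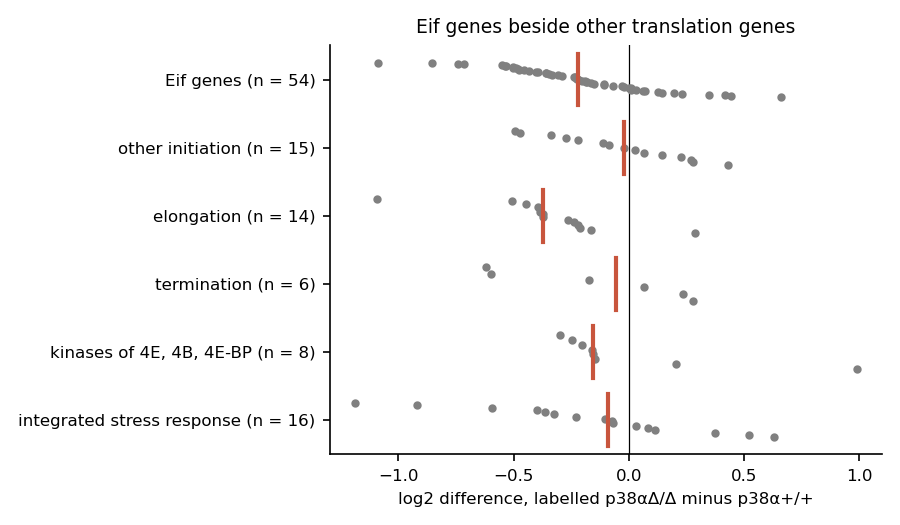
Log2 difference (horizontal axis, array labelled p38αΔ/Δ minus p38α+/+) of single genes (grey points) in 6 lists of translation genes, with the median of each list as a red bar, 1 array per genotype. The medians of the Eif genes (-0.22) and of the elongation list (-0.37) stand to the left of 0, and that of the other initiation genes (-0.02) stands at about 0.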

How the data were processed

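Single-colour Agilent arrays of LT-HSC RNA were read, 1 per genotype. The authors deposited scanner intensity values made with Agilent Feature Extraction 11.5.1.1 (per the labels), corrected for background and spatial trends but not scaled between arrays. A second deposited file holds log2 values of 35795 probes that were normalized before deposit, and each column equals that array's log2 intensity minus a constant (7.16 and 6.84). Array design coordinates are mm9, whose annotation was not used here. Control spots and outlier spots were removed, which left 55662 of 55681 probes. Spots were averaged per probe on the log2 scale, each array was set to its 75th percentile, and the brightest probe represented its gene. Genes detected on either array were kept, and an undetected side was set no lower than the dimmest detected signal. Of the 54 member names 53 matched RefSeq, the exception being Eif1-ps.

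The number of arrays limits the precision, and no p-value was computed. The role groups and gene lists come from general knowledge, and they and the members were chosen with earlier results of these data known. Named genes are those at least 2-fold different, the 5 largest falls and rises, fixed core factors of each role, genes whose probes disagree, and the extremes of each other list. Other genes were named after their values were seen. Alternatives were median centring, quantile normalization, loess (span 0.3), normexp (offset 50), the authors' values, other filters, no floor, averaging over the probes of a gene, all spots, and, added after seeing the data, leaving out junction-crossing probes or Eif1-ps. The calculation was tested on simulated data with planted differences larger than the family's median difference, so that test does not cover shifts of this size. Software was R 4.3.3 with limma 3.58.1 and Python 3.11.15 with matplotlib 3.10.9, statsmodels 0.14.6, pandas 2.3.3 and numpy 2.4.6.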

Additional observations from a re-analysis of the deposited data

How the results depend on the processing

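The number of member genes lower on the array labelled p38αΔ/Δ ranged from 37 to 42 of 54 over the alternatives that kept all members, and the median difference from -0.29 with normexp to -0.13 with quantile normalization or loess. Of 393 values of single genes under an alternative, 377 moved by less than the spot error. The sign changed for 15 values, 3 of them of genes whose difference exceeded that error: with the mean of the probes Eif4e2 stood at 0.26, Eif2s1 at 0.29 and Eif2s2 at 0.11. The medians of the eIF3, eIF2, eIF2α kinase and elongation lists stayed below 0 under every alternative run, with ranges of -0.35 to -0.15, -0.42 to -0.16, -0.19 to -0.15 and -0.38 to -0.25, whereas those of eIF2B (-0.02 to 0.04) and of eIF4F and its relatives (-0.08 to 0.13) took either sign. The median of the genes downstream of eIF2α ran from -0.35 (mean of the probes) to -0.07, and that of termination factors from -0.22 to 0.02. With normexp, 0 members were at least 2-fold lower (Eif3b at -0.80) and 0 at least 1.5-fold higher (Eif4e3 at 0.52). Without probes across exon junctions, 2 members were at least 1.5-fold lower. No other count of members past a fold moved by over 1.5 times under these alternatives. No alternative scaling moved the median of all named genes by over 0.1 (log2), but the gap between members and all genes did depend on the scaling. The members' median minus that of all named genes was -0.19 in the main setting and -0.12 with quantile normalization. This gap was -0.10 with loess and -0.34 with normexp, where 44.5% of all named genes were lower. The alternative without Argonaute genes under older Eif2c names was not run, since no member bears such a name. No paired analysis was possible because each group has 1 array, and for the same reason no replicate could be left out. Values of dim genes such as Eif5b lie near the background and are the least certain.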
